A study of Mus musculus with 9 samples.

Results

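The 10 genes described here, H2-K1, H2-D1, B2m, Tap1, Tap2, Tapbp, Psmb8, Psmb9, Psmb10 and Nlrc5, make and load the class I molecules of the major histocompatibility complex (MHC), and were taken by symbol from the 17565 genes of a deposited gene table. Every nucleated cell of a mouse can show samples of its own proteins to CD8 T cells through this route. The proteasome cuts proteins into peptides, and its inducible subunits Psmb8, Psmb9 and Psmb10 replace constitutive ones and change where it cuts. The transporter made of Tap1 and Tap2 carries peptides into the endoplasmic reticulum, tapasin (Tapbp) holds the empty class I molecule beside it, and the heavy chain (H2-K1 or H2-D1) folds with beta-2 microglobulin (B2m) around the peptide. Nlrc5 is a coactivator that binds the promoters of class I genes together with the RFX proteins, and interferons are the best known inducers of the whole set. Endothelial cells carry class I constantly and raise it in inflammation.

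The study compared MS1 cells, an endothelial line from mouse pancreas, in 3 groups of 3 samples. Control cells carried the empty lentiviral backbone pCDH-puro, and the other groups stably expressed TAZ4A (backbone pCDH-TAZS4A) or TAZ-CAMTA1 (backbone pCDH-TAZ-CAMTA1). TAZ, encoded by Wwtr1, is a coactivator of transcription that the Hippo kinases hold back and that works through TEAD factors, TAZ4A is a form that escapes this control, and TAZ-CAMTA1 is the fusion known from epithelioid hemangioendothelioma, a vascular sarcoma. The labels give no time after transduction, do not say whether a line is a clone or a pool, and do not state that samples within a group were cultured apart; p-values therefore measure only how these samples spread, which may be technical.

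Between 21966004 and 34224715 reads per library were assigned to genes, so a count of 3 reads corresponded to 0.0878 to 0.139 CPM (the authors' counts-per-million unit, on scaled library sizes). All 10 endothelial markers listed were detected, with summed levels of 9864 to 10191 CPM in control, 6710 to 6900.1 CPM with TAZ4A and 8957 to 11295 CPM in TAZ-CAMTA1. The Camta1 row averaged 4.05 ± 0.923 CPM (SD, n = 3) in control, 4.91 ± 0.253 with TAZ4A and 13.1 ± 0.579 in TAZ-CAMTA1. The Wwtr1 row averaged 551 ± 17.6, 325 ± 8.70 and 437 ± 94.4 CPM (SD, n = 3), lower in TAZ4A than in control; the sources used here do not say whether the introduced TAZ is mouse or human, so this row does not check the labels. TAZ-CAMTA1 replicate 2 stood apart: its correlation with the other libraries of its group (Pearson's r of log2 values over genes) was at most 0.963, where the other groups had at least 0.997, and its share of reads on genes of ribosomal proteins was 4.35%, where the other 8 libraries had 2.01 to 2.32%. Results that rest on this library are given with and without it.

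Of the members, 7 lie in the MHC on chromosome 17 (mm10, the build of the files): Tapbp at chr17:33919478-33929290, H2-K1 at chr17:33996012-34000333, Psmb9 at chr17:34182099-34187330, Tap1 at chr17:34187556-34197225, Psmb8 at chr17:34198195-34201454, Tap2 at chr17:34204479-34216321 and H2-D1 at chr17:35263094-35267497. B2m lies at chr2:122147687-122153082, Nlrc5 at chr8:94472763-94527272 and Psmb10 at chr8:105935728-105938392. Promoter sequences are shown for both heavy chains, B2m and the Psmb9 and Tap1 pair, which all rose in both expressing groups. The windows are RefSeq sequence on GRCm38.p6, and 8 of the 10 members, all but Tap2 and Nlrc5, had one. The 250 bases before the start of transcription are printed 5′ to 3′ on the strand of the gene. H2-K1 has 2 start sites in RefSeq, and the window of the one nearer the coding sequence is shown. The last line is the whole interval between the starts of Psmb9 and Tap1. Capitals mark each match, on either strand, to any of 6 short motifs: GAAA followed after any 2 bases by GAAA (interferon response type), GGG then any 2 bases, TT, any base and CC (NF-kB type), TTCNNNGAA (STAT type), TGACGC (X2 box core), CCAAT (Y box core) and GGAATG (TEAD type). No matches overlapped in the sequences below.
H2-K1, chr17:34000334-34000583, minus strand: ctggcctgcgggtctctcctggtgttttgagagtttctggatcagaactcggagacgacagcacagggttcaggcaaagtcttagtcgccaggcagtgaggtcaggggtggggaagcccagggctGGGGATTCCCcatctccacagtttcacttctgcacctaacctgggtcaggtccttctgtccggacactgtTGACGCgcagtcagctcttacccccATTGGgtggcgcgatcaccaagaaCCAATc
H2-D1, chr17:35262844-35263093, plus strand: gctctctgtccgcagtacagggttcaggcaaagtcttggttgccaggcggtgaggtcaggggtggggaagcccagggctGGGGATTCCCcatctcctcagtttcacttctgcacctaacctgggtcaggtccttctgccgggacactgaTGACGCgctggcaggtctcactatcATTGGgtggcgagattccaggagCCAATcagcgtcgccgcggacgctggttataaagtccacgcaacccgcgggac
B2m, chr2:122147437-122147686, plus strand: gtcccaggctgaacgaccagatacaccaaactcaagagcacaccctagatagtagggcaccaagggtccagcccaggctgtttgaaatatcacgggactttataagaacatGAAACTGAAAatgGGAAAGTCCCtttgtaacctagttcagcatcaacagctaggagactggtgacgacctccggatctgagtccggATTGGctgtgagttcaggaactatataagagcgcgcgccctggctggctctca
Psmb9 to Tap1, chr17:34187331-34187555, plus strand: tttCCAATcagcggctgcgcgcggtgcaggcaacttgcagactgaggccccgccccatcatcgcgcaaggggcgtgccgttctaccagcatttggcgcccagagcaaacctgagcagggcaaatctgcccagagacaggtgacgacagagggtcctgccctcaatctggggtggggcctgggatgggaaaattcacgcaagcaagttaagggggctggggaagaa

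The promoters of H2-K1 and H2-D1 hold the same NF-kB type match, GGGGATTCCC, then the X2 core TGACGC starting 70 bases on and a Y core (as ATTGG) starting 25 bases after that, and 177 of their 204 aligned columns (86.8%) were identical. B2m holds the interferon type match GAAACTGAAA, an NF-kB type match on the other strand (GGAAAGTCCC) and 1 Y core. Psmb9 and Tap1 are transcribed away from each other, and the 225 bases between their starts hold 1 match, a Y core close to Psmb9. Of the members not printed, Psmb8 holds the STAT type match TTCCCAGAA, Tapbp holds 2 Y cores and Psmb10 holds none of the 6 motifs. None of the 8 members with a window holds GGAATG in it, and Tap2 and Nlrc5 had no window and were not searched. Among 32851 RefSeq windows of the same length, 2.98% hold the interferon type motif, 4.11% the NF-kB type, 7.02% the STAT type, 6.12% the X2 core, 33.8% the Y core and 12.6% the TEAD type. A match is a run of letters in this window and was not tested as a binding site. Only the letters given were searched, so a site that differs from them was missed, and a window without a match can still hold one.

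In TAZ4A cells, 8 of the 10 members rose against control and none fell (limma on log2(CPM + 0.5), Benjamini-Hochberg adjusted p under 0.05). Over all 12350 genes tested in this comparison, 13.2% rose and 11.7% fell. The largest rises were those of Nlrc5 and H2-K1, whose mean CPM was 4.81 and 3.96 times the control mean. Tapbp and Psmb10 did not pass the test. In TAZ-CAMTA1 cells, 7 members rose against control and none fell, with 16.8% of all genes higher and 15.3% lower. Directly compared, 4 members (H2-K1, B2m, Tap1 and Nlrc5) were lower in TAZ-CAMTA1 than in TAZ4A and none was higher, with 18.5% of all genes lower and 19.4% higher. The median log2 fold change of the 10 members was 1.14 in TAZ4A against control, 0.62 in TAZ-CAMTA1 against control and -0.42 in TAZ-CAMTA1 against TAZ4A, where the medians of all tested genes were -0.01, -0.03 and -0.02. The comparisons share libraries and are not independent of each other. In these bulk samples more cells expressing a gene and more RNA per cell cannot be told apart.

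**Figure D1:**
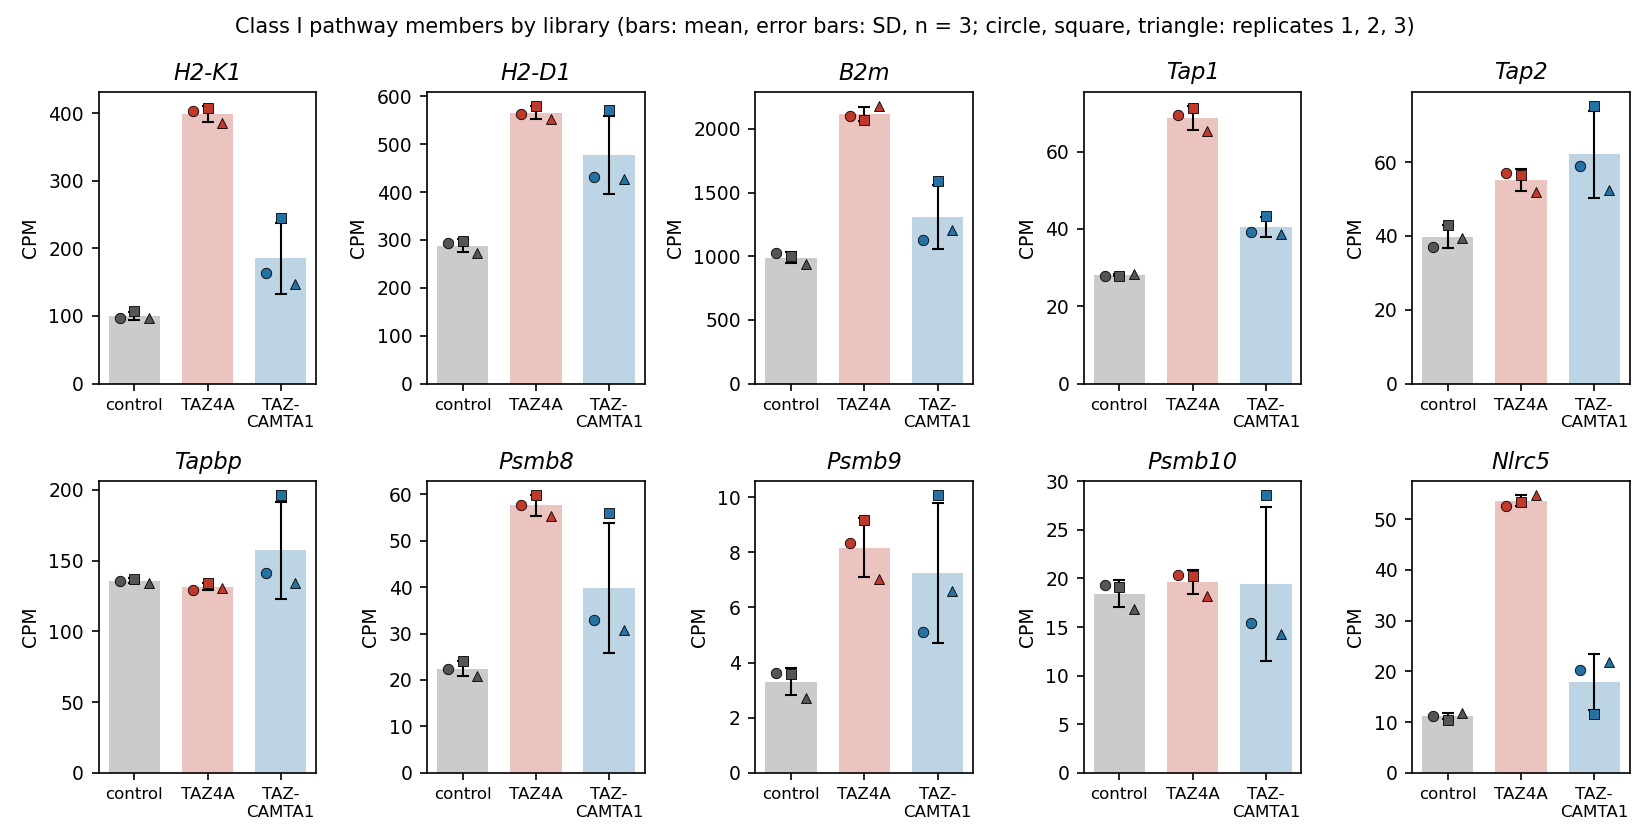
CPM of each member by group (bars, mean; error bars, SD, n = 3; circles, squares and triangles, replicates 1, 2 and 3). All TAZ4A libraries lie above all control libraries for 8 members, and the TAZ-CAMTA1 square (replicate 2) is the highest point of its group for every member except Nlrc5.

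The heavy chains present the peptide and are the most variable part of the complex. H2-K1 measured 97.5, 107 and 96.7 CPM in control replicates 1 to 3, 403, 408 and 385 CPM with TAZ4A and 163, 246 and 147 CPM in TAZ-CAMTA1. The 3 TAZ4A libraries were the highest, the control libraries the lowest, and no groups overlapped. Against control the log2 fold change was 1.98 ± 0.17 (SE) in TAZ4A, with an adjusted p of 5.47e-05 from limma, and 0.85 ± 0.17 in TAZ-CAMTA1 (adjusted p = 0.00596, limma). TAZ-CAMTA1 was lower than TAZ4A by a log2 fold change of -1.14 ± 0.17 (adjusted p = 0.00108, limma). H2-D1 is the other classical heavy chain among the members. H2-D1 gave 294, 298 and 274 CPM in control replicates 1 to 3, 564, 580.3 and 553 CPM with TAZ4A and 432, 572 and 428 CPM in TAZ-CAMTA1. Both expressing groups lay above control, and they overlapped each other through TAZ-CAMTA1 replicate 2. H2-D1 rose by 0.97 ± 0.11 on the log2 scale in TAZ4A (adjusted p = 3.56e-04, limma) and by 0.71 ± 0.11 in TAZ-CAMTA1 (adjusted p = 0.00201, limma). The difference between the expressing groups, -0.26 ± 0.11, did not pass (adjusted p = 0.108, limma), but passed without TAZ-CAMTA1 replicate 2, at -0.40 (adjusted p = 2.48e-06, limma, and 5.39e-07 to 0.245 over all alternatives tried).

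The heavy-chain genes have near copies in the genome. Of the 50-base stretches of the principal H2-D1 transcript, 14.3% also occur in another gene's transcripts, most often H2-Q1, H2-Q7 or H2-Q6, and for H2-K1 the share is 8.79%, with H2-D1 first among the other genes. With 100-base stretches the shares were 4.64% and 0. The deposited table also has a separate row, H2-L, whose span (chr17:35263123-35266730, mm10) lies inside that of H2-D1 (chr17:35263094-35267497), and how reads common to both rows were assigned is not given in the sources used here. H2-L had 156, 168 and 165 CPM in control replicates 1 to 3, 344, 356 and 331 CPM with TAZ4A and 268, 298 and 225 CPM in TAZ-CAMTA1. H2-L thus lay in the same order of groups as H2-D1, with a log2 fold change of 1.07 with TAZ4A and 0.68 in TAZ-CAMTA1 against control, and the 2 rows cannot be taken as separate genes. On the GENCODE table the H2-D1 means were 283, 552 and 462 CPM in control, TAZ4A and TAZ-CAMTA1.

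B2m is the invariant light chain that every class I molecule needs to reach the cell surface. B2m stood at 1029, 997 and 939 CPM in control replicates 1 to 3, 2102, 2072 and 2180.2 CPM with TAZ4A and 1127, 1591 and 1202 CPM in TAZ-CAMTA1. The TAZ4A libraries formed a tight group well above both others, while the TAZ-CAMTA1 libraries lay nearer to control, without overlap. B2m rose by 1.10 ± 0.12 (log2, SE) in TAZ4A, with an adjusted p of 2.71e-04 by limma. The TAZ-CAMTA1 rise of 0.39 ± 0.12 passed narrowly (adjusted p = 0.043, limma). It no longer passed without any single control library or any single TAZ4A library, with adjusted p from 0.0703 (without TAZ4A replicate 3) to 0.138 (without control replicate 3), nor in the 6 samples alone (0.122) or with no filter on low values (0.0573). Without TAZ-CAMTA1 replicate 2 it was 0.24, with an adjusted p of 5.81e-04 by limma, the lowest of all alternatives tried. Between the expressing groups B2m differed by -0.71 ± 0.12 (adjusted p = 0.0024, limma).

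Tap1 and Tap2 form the peptide transporter. Tap1 reached 27.9, 27.8 and 28.3 CPM in control replicates 1 to 3, 69.4, 71.4 and 65.3 CPM with TAZ4A and 39.3, 43.4 and 38.8 CPM in TAZ-CAMTA1. Tap1 had the smallest standard error of the members, and no groups overlapped. Tap1 rose by 1.28 ± 0.07 (log2, SE) in TAZ4A (adjusted p = 4.79e-06, limma) and by 0.52 ± 0.07 in TAZ-CAMTA1 (adjusted p = 9.30e-04, limma), and was lower in TAZ-CAMTA1 than in TAZ4A, at -0.76 ± 0.07 (adjusted p = 9.20e-05, limma). Its partner did not share the difference between the expressing groups. Tap2 measured 36.9, 43.0 and 39.4 CPM in control replicates 1 to 3, 57.1, 56.4 and 51.8 CPM with TAZ4A and 58.9, 75.2 and 52.3 CPM in TAZ-CAMTA1. Both expressing groups lay above control and overlapped each other. Tap2 rose by 0.47 ± 0.13 in TAZ4A (adjusted p = 0.0322, limma) and by 0.62 ± 0.13 in TAZ-CAMTA1 (adjusted p = 0.00759, limma), and the difference between these groups was 0.16 ± 0.13 (adjusted p = 0.367, limma). Without TAZ-CAMTA1 replicate 2 the TAZ-CAMTA1 rise was 0.48 (adjusted p = 2.89e-05, limma). The difference from TAZ4A was then 0.01 (adjusted p = 0.888, limma). The TAZ4A rise against control, which does not use that library for its estimate, was still 0.47. Its SE was then 0.06 in place of 0.13 (adjusted p = 1.09e-05, limma). The TAZ4A call of Tap2 was lost without any single control or TAZ4A library, with adjusted p from 0.0551 (without control replicate 2) to 0.118 (without control replicate 1) and log2 fold changes of 0.41 to 0.52; over all alternatives the adjusted p ran from 1.84e-06 to 0.118.

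Tapbp encodes tapasin, which bridges the transporter and the empty heavy chain. Tapbp had 136, 137 and 134 CPM in control replicates 1 to 3, 129, 134 and 131 CPM with TAZ4A and 141, 196 and 134 CPM in TAZ-CAMTA1. The groups overlapped, and TAZ-CAMTA1 replicate 2 was the only library far from the rest. No comparison of Tapbp passed: the log2 fold change was -0.05 ± 0.13 in TAZ4A (adjusted p = 0.861, limma) and 0.19 ± 0.13 in TAZ-CAMTA1 (adjusted p = 0.299, limma) against control. Without that library the TAZ-CAMTA1 value was 0.02 (adjusted p = 0.726, limma, and 0.119 to 0.726 over all alternatives tried). The sign in TAZ4A changed with the scaling: it was 0.0050 on TPM and 0.018 with CPM rescaled to the same sum.

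The inducible proteasome subunits differed among themselves. Psmb8 measured 22.3, 24.005 and 20.8 CPM in control replicates 1 to 3, 57.6, 59.8 and 55.3 CPM with TAZ4A and 32.9, 55.9 and 30.7 CPM in TAZ-CAMTA1. All TAZ4A and all TAZ-CAMTA1 libraries lay above control, and TAZ-CAMTA1 replicate 2 reached the TAZ4A range. Psmb8 (LMP7), which takes the place of Psmb5, rose by 1.34 ± 0.20 (log2, SE) in TAZ4A (adjusted p = 0.00138, limma) and by 0.77 ± 0.20 in TAZ-CAMTA1 (adjusted p = 0.0198, limma). The second call was lost without control replicate 1 (adjusted p = 0.0606, limma) or control replicate 3 (adjusted p = 0.0726, limma) and in the 6 samples alone (0.0687). Without TAZ-CAMTA1 replicate 2 the rise was 0.50 (adjusted p = 9.36e-06, limma). Between the expressing groups the difference was -0.58 ± 0.20 (adjusted p = 0.0514, limma), and -0.85 without that library (adjusted p = 1.74e-08, limma). Over all alternatives the adjusted p ran from 9.36e-06 to 0.0726 against control and from 4.08e-09 to 0.134 between the expressing groups.

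Psmb9 (LMP2), which takes the place of Psmb6, was the member with the lowest CPM, from 78 to 313 reads per library. Psmb9 gave 3.62, 3.59 and 2.73 CPM in control replicates 1 to 3, 8.33, 9.16 and 7.03 CPM with TAZ4A and 5.12, 10.1 and 6.58 CPM in TAZ-CAMTA1. Both expressing groups lay above control and overlapped each other. Its log2 fold change was 1.19 ± 0.22 in TAZ4A (adjusted p = 0.00504, limma) and 0.98 ± 0.22 in TAZ-CAMTA1 (adjusted p = 0.011, limma); the expressing groups differed by -0.20 ± 0.22 (adjusted p = 0.499, limma), or by -0.45 without TAZ-CAMTA1 replicate 2 (adjusted p = 0.01, limma, and 0.00106 to 0.986 over all alternatives tried). Psmb10 (MECL-1), which takes the place of Psmb7, lies outside the MHC, on chromosome 8. Psmb10 stood at 19.3, 19.1 and 16.9 CPM in control replicates 1 to 3, 20.4, 20.2 and 18.2 CPM with TAZ4A and 15.4, 28.6 and 14.3 CPM in TAZ-CAMTA1. TAZ-CAMTA1 replicate 2 was the highest of all 9 libraries, and the other 2 libraries of its group were the lowest. With all libraries, Psmb10 differed by 0.09 ± 0.23 with TAZ4A and 0.00 ± 0.23 in TAZ-CAMTA1 against control (adjusted p = 0.845 and 0.992, limma). Without that library it fell by 0.30 on the log2 scale in TAZ-CAMTA1 (adjusted p = 0.00389, limma), opposite in sign to the value with all libraries; over all alternatives the adjusted p ran from 0.00389 to 1.00.

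Nlrc5 was the member with the largest change. Nlrc5 measured 11.1, 10.5 and 11.8 CPM in control replicates 1 to 3, 52.6, 53.4 and 54.7 CPM with TAZ4A and 20.3, 11.6 and 21.8 CPM in TAZ-CAMTA1. The TAZ4A libraries stood far above all others, and in TAZ-CAMTA1 replicates 1 and 3 lay above control while replicate 2 lay within its range. Nlrc5 rose by 2.22 ± 0.20 (log2, SE) in TAZ4A (adjusted p = 8.66e-05, limma), and was lower in TAZ-CAMTA1 than in TAZ4A at -1.60 ± 0.20 (adjusted p = 4.66e-04, limma). The TAZ-CAMTA1 value against control, 0.61 ± 0.20, fell just short of the threshold (adjusted p = 0.05001, limma, and 1.38e-08 to 0.172 over all alternatives tried). Without TAZ-CAMTA1 replicate 2 it was 0.89 (adjusted p = 1.38e-08, limma), and edgeR and DESeq2 on whole reads of all libraries gave 0.70 each (adjusted p = 0.0311 and 0.00564). The authors' deposited table lists 0.68 for this comparison, with a false discovery rate of 0.0064. By the same table, at a false discovery rate under 0.05, 8 members rise in TAZ4A, 8 rise in TAZ-CAMTA1 and 5 are lower in TAZ-CAMTA1 than in TAZ4A. Over its 17565 genes, 11.5% rise and 6.76% fall in TAZ4A, 13.4% rise and 8.64% fall in TAZ-CAMTA1, and 14.0% are higher and 13.4% lower between them.

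**Figure D2:**
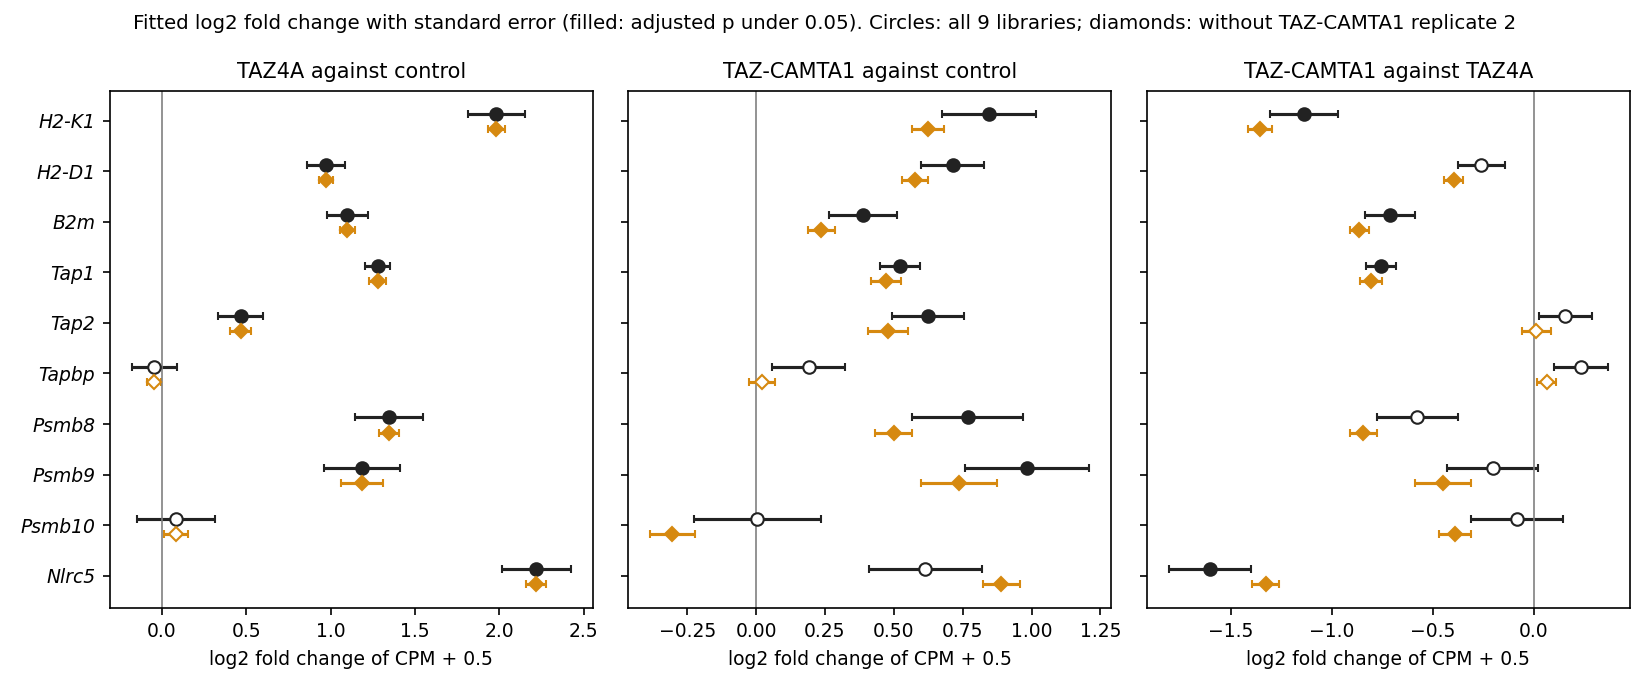
Fitted log2 fold change of each member on the CPM + 0.5 scale in the 3 comparisons (points, estimate; bars, SE; filled where the limma adjusted p is under 0.05), with all 9 libraries (circles) and without TAZ-CAMTA1 replicate 2 (diamonds). Leaving that library out cannot move a TAZ4A estimate against control, which does not use it. Against TAZ4A, leaving it out lowered every estimate of TAZ-CAMTA1 but that of Nlrc5.

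Without TAZ-CAMTA1 replicate 2, 8 members rose and none fell in TAZ4A (28.1% and 30.6% of all genes), 8 rose and Psmb10 fell in TAZ-CAMTA1 (28.3% and 32.6% of all genes), and 8 were lower and none higher in TAZ-CAMTA1 than in TAZ4A (32.5% and 30.5% of all genes). The members lower in the last comparison were all except Tap2 and Tapbp, whose values were 0.01 and 0.07 on the log2 scale (adjusted p = 0.888 and 0.242, limma). The share of all genes called rose too when this library was left out, so the count of members has to be read against these larger backgrounds. Counted by libraries alone, the 3 TAZ4A libraries all lay above the 3 control libraries for 8 members, as for 30.4% of all genes, and below them for none (32.7% of all genes). The TAZ-CAMTA1 libraries lay above control for 7 members, as for 22.8% of all genes, and below it for none (24.7%). They lay below TAZ4A for 4 members, as for 28.8% of all genes, and above it for none (26.5%).

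The way TAZ-CAMTA1 replicate 2 departed from its group differed between members. Its CPM was above the mean of replicates 1 and 3 for 9 members, from 1.11 times (Tap1) to 1.93 times (Psmb10), and 0.552 times that mean for Nlrc5. Nlrc5 has the longest principal transcript of the 10 (7578 nt in GENCODE vM21, 53 exons). The member with the shortest, B2m (860 nt, 4 exons), stood at 1.37 times. Between them the 3 proteasome subunits (1311 to 1628 nt) and H2-K1 (1619 nt) had ratios of 1.58 to 1.93, and the 4 members of 2102 to 3442 nt had 1.11 to 1.43. These are single-library values, and a role of transcript length, RNA quality or library preparation was not tested.

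**Figure D3:**
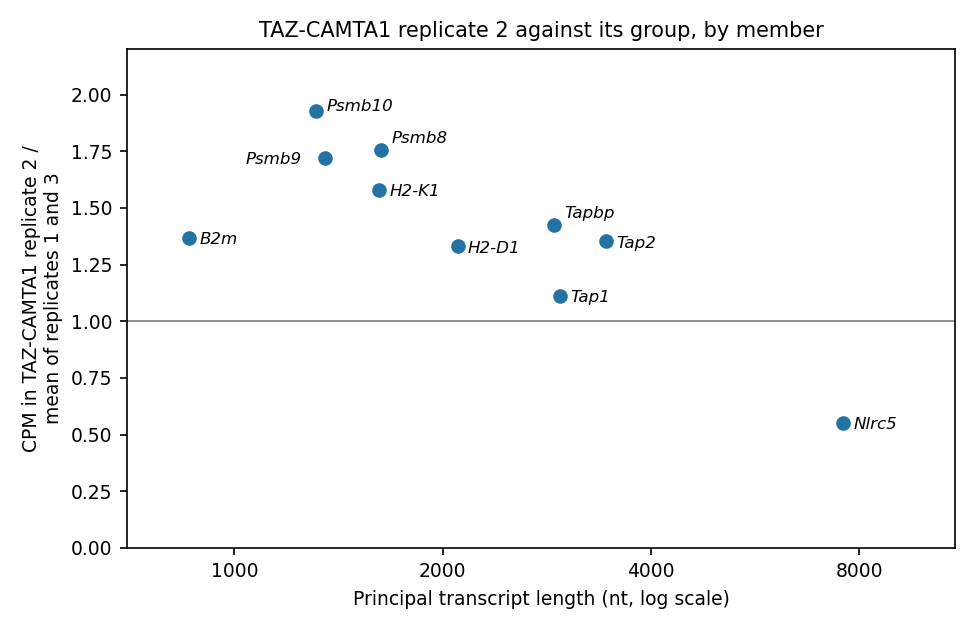
CPM in TAZ-CAMTA1 replicate 2 divided by the mean of replicates 1 and 3 (vertical axis) against principal transcript length in nt (horizontal axis, log scale), 1 point per member. Only Nlrc5, at 7578 nt, lies below 1, at 0.552.

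Per length of transcript the members spanned a wide range. In control cells the level of B2m was 2801 ± 109 TPM (SD, n = 3), followed by H2-D1 at 404, H2-K1 at 148 and Tapbp at 120.0 TPM. Psmb8 (44.5 TPM), Tap2 (38.8), Psmb10 (35.3), Tap1 (23.1), Psmb9 (9.98) and Nlrc5 (3.90) came next, and of these neighbours only Tap2 and Psmb10 overlapped between libraries. The order in TAZ4A began the same way, with B2m at 6219 ± 192, H2-D1 at 821 and H2-K1 at 609.8 TPM. Psmb8 then stood level with Tapbp (119 and 120.4 TPM) and Tap1 with Tap2 (58.7 and 55.7 TPM), the libraries of each pair overlapping, above Psmb10 (38.9), Psmb9 (25.5) and Nlrc5 (19.4). In TAZ-CAMTA1 the order was that of control, from B2m at 3510.3 ± 240.2 through H2-D1 (635), H2-K1 (258), Tapbp (131), Psmb8 (74.2), Tap2 (57.6), Psmb10 (34.6), Tap1 (32.0) and Psmb9 (20.5) to Nlrc5 (6.18), with Psmb10 and Tap1 overlapping. The 2 transporter subunits, which work as a pair, were thus at unequal levels in control and TAZ-CAMTA1 and at overlapping levels in TAZ4A.

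Each inducible proteasome subunit was set against the constitutive subunit whose place it takes, as a percent of that subunit's TPM in the same library. Psmb8 amounted to 31.4, 29.7 and 26.5% of Psmb5 in control, 71.8, 73.7 and 73.2% with TAZ4A and 49.1, 65.8 and 54.9% in TAZ-CAMTA1. No groups overlapped, and TAZ4A was the highest, with a log2 difference of -0.37 between TAZ-CAMTA1 and TAZ4A. Psmb9 amounted to 3.69, 3.17 and 2.71% of Psmb6 in control, 7.02, 7.55 and 6.37% with TAZ4A and 5.58, 6.53 and 7.42% in TAZ-CAMTA1, so both expressing groups lay above control and overlapped each other. Psmb10 stayed between 6.05 and 7.76% of Psmb7 in all 9 libraries and the groups overlapped. The log2 differences from control were 1.31 (TAZ4A) and 0.94 (TAZ-CAMTA1) for Psmb8 over Psmb5 and 1.09 and 0.99 for Psmb9 over Psmb6. Each of these had a p of 0.1 in the exact two-sided permutation test, the smallest that 3 against 3 allows (0.18 adjusted over the 9 ratio comparisons). Psmb10 over Psmb7 differed by 0.06 and 0.09 (p = 0.4 each, exact permutation test). In this within-library ratio TAZ-CAMTA1 replicate 2 was the highest of its group for Psmb8 and Psmb10 and the middle one for Psmb9. A ratio also rises when the constitutive subunit falls. Psmb5 was at 142, 157 and 159 TPM in control and 136, 141 and 115 TPM in TAZ-CAMTA1. Without TAZ-CAMTA1 replicate 2, Psmb8 over Psmb5 differed from control by 0.83. In the limma fit without it, Psmb8 changed by 0.50 and Psmb5 by -0.32. Psmb9 over Psmb6 was then 0.99, with Psmb9 at 0.74 and Psmb6 at -0.20.

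**Figure D4:**
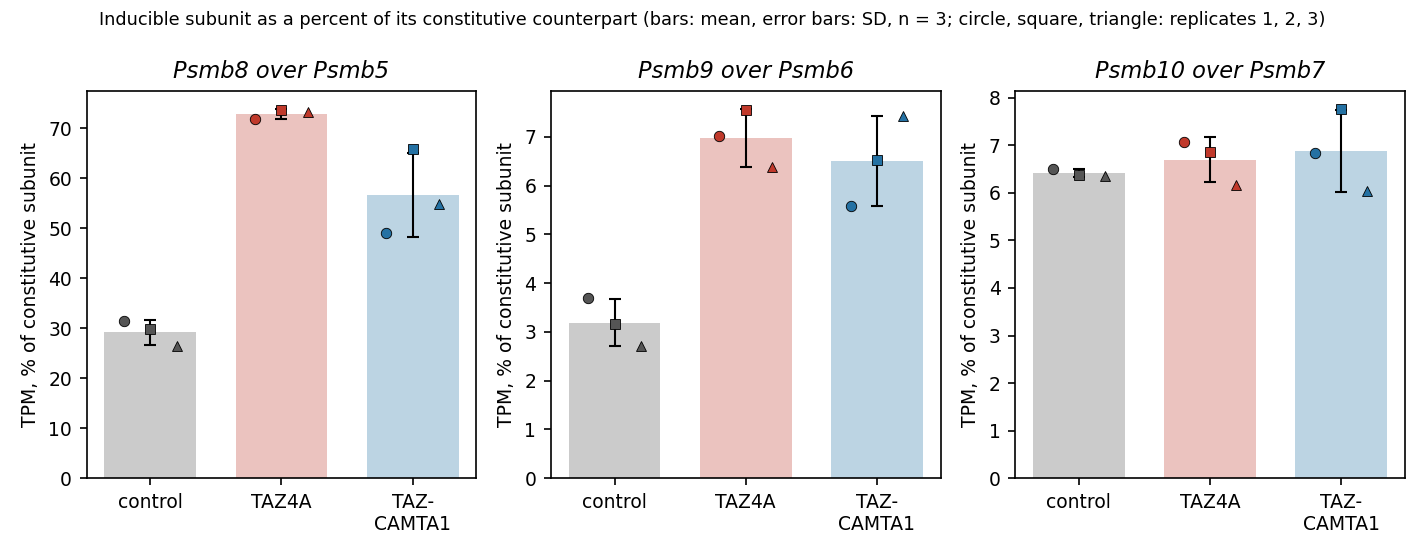
TPM of each inducible proteasome subunit as a percent of its constitutive counterpart, by group (bars, mean; error bars, SD, n = 3; circles, squares and triangles, replicates 1, 2 and 3). Psmb8 over Psmb5 runs from 26.5 to 31.4% in control and 71.8 to 73.7% in TAZ4A, while Psmb10 over Psmb7 stays between 6.05 and 7.76% in all libraries.

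Reads that span an annotated intron gave a second count of the same libraries, from separate deposited files, and reads placed at 1 position only were used. They are given as CPM of each library's unique junction reads. Nlrc5 junction CPM was 17.8, 16.9 and 18.4 in control, 81.7, 83.1 and 81.8 with TAZ4A and 32.5, 10.8 and 34.0 in TAZ-CAMTA1. The TAZ4A libraries were the highest and TAZ-CAMTA1 replicate 2 the lowest of all 9. H2-K1 junction CPM was 98.1, 108 and 83.3 in control, 369.7, 377 and 365 with TAZ4A and 146, 263 and 154 in TAZ-CAMTA1, with no overlap between groups. The 8 members called in TAZ4A were all higher there than in control on junction reads with no overlap, from 1.39 times (Tap2) to 4.65 times (Nlrc5), and Tapbp and Psmb10 overlapped, at 1.10 and 1.06 times. In TAZ-CAMTA1 the same 7 members that were called lay above control with no overlap, from 1.40 times (B2m) to 2.30 times (Psmb9), and H2-K1, B2m, Tap1 and Nlrc5 lay below TAZ4A. These values include TAZ-CAMTA1 replicate 2, and the rise of each of the 7 members was smaller without it. The log2 ratio to control went from 0.79 to 0.39 for Psmb8, from 0.96 to 0.64 for H2-K1 and from 0.64 to 0.60 for Tap1. Of 10780 genes with at least 10 unique junction reads in at least 3 libraries, 29.7% lay higher and 19.4% lower in TAZ4A than in control without overlap. The shares were 15.9% and 16.5% in TAZ-CAMTA1 against control, and 17.1% and 25.9% in TAZ-CAMTA1 against TAZ4A. Each such difference had a p of 0.1 in the exact two-sided permutation test, the smallest possible, and 0.158 adjusted over 30 comparisons. Of the junction reads of H2-D1, 8.05 to 12.9% mapped to several places, against 3.68 to 8.49% for H2-K1 and 0.106 to 0.507% for B2m. Tap1, which has no near copy at 100 bases, had 8.75 to 15.9%.

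Of 73 other genes of the pathway, grouped by role, 69 were in the table and 57 were tested. Among 11 tested nonclassical class I genes, heavy chains with little variation or special ligands, 6 rose and none fell in each of the expressing groups against control. H2-Q7 is counted in both groups and among the 3 genes lower in TAZ-CAMTA1 than in TAZ4A. It reached 0.5 CPM only in the TAZ4A libraries and was tested through them alone. Its place in the counts that involve TAZ4A was thus favoured by the filter. Of all tested genes, 13.2% rose and 11.7% fell in TAZ4A, and 16.8% rose and 15.3% fell in TAZ-CAMTA1. In TAZ-CAMTA1 against TAZ4A, 19.4% were higher and 18.5% lower. H2-Q4 averaged 42.9 ± 1.45, 133 ± 2.97 and 70.6 ± 9.51 CPM (SD, n = 3) in control, TAZ4A and TAZ-CAMTA1, with log2 fold changes of 1.62 and 0.70 against control (adjusted p = 6.34e-06 and 8.55e-04, limma). H2-T10, low throughout, rose by 0.99 in TAZ4A (adjusted p = 0.0182, limma). Mr1, which presents vitamin metabolites to a special class of T cells, was highest in TAZ-CAMTA1, at 67.1, 48.2 and 68.4 CPM against 28.7, 28.9 and 31.6 in control and 40.5, 41.0 and 42.8 in TAZ4A. Its log2 fold change was 1.01 in TAZ-CAMTA1 against control and 0.54 against TAZ4A (adjusted p = 6.68e-04 and 0.0122, limma). H2-M3, which presents formylated peptides, rose in both expressing groups, by 0.91 with TAZ4A and 0.84 in TAZ-CAMTA1 (adjusted p = 4.32e-05 and 8.58e-05, limma), and the difference between them was -0.06 (adjusted p = 0.531, limma). Between the expressing groups 1 gene of this list was higher in TAZ-CAMTA1 (Mr1) and 3 were lower, among them H2-Q4 at -0.91 and H2-T10 at -0.73 (adjusted p = 1.57e-04 and 0.0456, limma). The median log2 fold change of the list was 0.47 with TAZ4A and 0.50 in TAZ-CAMTA1 against control. Leaving out TAZ-CAMTA1 replicate 2, 10 rose in TAZ4A, 6 rose and 1 fell in TAZ-CAMTA1, and 1 was higher and 6 lower between them. H2-T9 and H2-T22, whose rows cover nearly the same span, are both among the 10 that rose and the 6 that were lower. These 2 rows cannot be taken as separate genes, so 1 locus was counted more than once. The shares of all tested genes were then 28.1% rising and 30.6% falling in TAZ4A and 28.3% and 32.6% in TAZ-CAMTA1. Between them 30.5% were higher and 32.5% lower in TAZ-CAMTA1.

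Genes of peptide trimming and of general loading in the endoplasmic reticulum mostly fell in TAZ-CAMTA1. Of 8 tested, 6 fell and none rose against control, and 6 were lower and none higher than in TAZ4A, while in TAZ4A 1 rose and 1 fell. The shares of all tested genes were 15.3% falling and 16.8% rising in TAZ-CAMTA1 against control, and 18.5% lower and 19.4% higher than in TAZ4A. In TAZ4A 13.2% rose and 11.7% fell. Erap1, the aminopeptidase that trims peptides to the length class I accepts, measured 55.1, 57.8 and 60.9 CPM in control, 60.2, 59.8 and 60.0 with TAZ4A and 42.8, 23.8 and 42.6 in TAZ-CAMTA1. It fell in TAZ-CAMTA1 at -0.71 ± 0.20 on the log2 scale (adjusted p = 0.027, limma), with replicate 2 the lowest. Leaving that library out gave -0.44 (adjusted p = 4.13e-06, limma). Hspa5 (BiP), a chaperone used by all secreted proteins, averaged 1318 ± 86.9, 1587 ± 23.7 and 769 ± 50.3 CPM (SD, n = 3), a change of 0.27 in TAZ4A and -0.78 in TAZ-CAMTA1 (adjusted p = 0.037 and 1.76e-04, limma). Tapbpl, the tapasin relative TAPBPR, was the gene that fell in TAZ4A, at -0.35 (adjusted p = 0.0161, limma). Most of this list serves protein folding in general and not class I alone. When TAZ-CAMTA1 replicate 2 was left out, 7 of 8 fell against control and 7 were lower than in TAZ4A, and 3 rose and 1 fell in TAZ4A. The matching shares of all tested genes were then 32.6%, 32.5%, 28.1% and 30.6%.

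Most of the rest of the proteasome passed in neither expressing group with all libraries. None of the constitutive catalytic subunits Psmb5, Psmb6 and Psmb7 passed in any comparison, with log2 fold changes of 0.04, 0.17 and 0.03 with TAZ4A and -0.17, 0.06 and -0.09 in TAZ-CAMTA1 against control. Of 11 other core subunits none rose or fell in TAZ4A and 2 fell in TAZ-CAMTA1, Psma3 at -0.41 and Psma1 at -0.27 (adjusted p = 0.00164 and 0.0415, limma), which were also the 2 lower than in TAZ4A. Of 4 activators and assembly factors, Psme3 rose in TAZ4A at 0.37 (adjusted p = 0.0115, limma) and was lower in TAZ-CAMTA1 than in TAZ4A at -0.59 (adjusted p = 7.97e-04, limma), and none passed in TAZ-CAMTA1 against control. These counts depended on TAZ-CAMTA1 replicate 2. Without it all 3 constitutive subunits and 10 of the 11 core subunits fell in TAZ-CAMTA1 against control, with medians of -0.31 and -0.22 on the log2 scale, and 3 and 9 were lower than in TAZ4A. In TAZ4A against control 1 constitutive subunit and 2 core subunits then rose, and 3 activators or assembly factors rose and 1 fell. Of those 4, 2 fell in TAZ-CAMTA1 against control and 3 were lower than in TAZ4A. With all libraries, 13.2% of all tested genes rose and 11.7% fell in TAZ4A, 15.3% fell in TAZ-CAMTA1 and 18.5% were lower than in TAZ4A. Without TAZ-CAMTA1 replicate 2 these shares were 28.1%, 30.6%, 32.6% and 32.5%.

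Known transcription factors of class I genes differed between the expressing groups. Irf1, a factor that interferons induce, measured 26.2, 30.1 and 29.9 CPM in control, 38.3, 37.9 and 38.2 with TAZ4A and 46.0, 47.4 and 44.0 in TAZ-CAMTA1. Its 3 groups did not overlap and TAZ-CAMTA1 was the highest, with rises of 0.40 and 0.66 against control and 0.26 between the expressing groups (adjusted p = 0.00477, 3.41e-04 and 0.027, limma). Relb, a subunit of NF-kB, rose in TAZ-CAMTA1 by 1.14 (adjusted p = 0.00239, limma) and was higher there than in TAZ4A by 0.92 (adjusted p = 0.00588, limma). Rfxank, a partner of Rfx5 at X boxes, was higher in TAZ-CAMTA1 than in TAZ4A by 0.54 (adjusted p = 0.00568, limma). Rfx5 did not pass with all libraries, at -0.24 and -0.26 against control. Without TAZ-CAMTA1 replicate 2, Rfx5 passed in TAZ4A (-0.24, adjusted p = 0.00397, limma) and between the expressing groups (0.19, adjusted p = 0.0263, limma), and its TAZ-CAMTA1 value against control was -0.05 (adjusted p = 0.576, limma). Of the 9 regulators 2 rose and none fell in TAZ4A, 4 rose and none fell in TAZ-CAMTA1, and 4 were higher and 1 lower between them. The matching shares of all tested genes were 13.2% and 11.7%, 16.8% and 15.3%, and 19.4% and 18.5%. Without TAZ-CAMTA1 replicate 2 the counts of regulators were 3 and 4, 4 and 0, and 5 and 1. The shares of all tested genes were then 28.1% and 30.6%, 28.3% and 32.6%, and 30.5% and 32.5%.

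Of 11 genes of interferon ligands, receptors and signalling, 9 were tested. Ifnb1 had 0 to 4 reads in every library and was not tested, so its level was at or near the limit of 3 reads. Ifng was not analysed here. Stat2 and Irf9, which work in the complex that answers type I interferon, rose in TAZ4A and fell in TAZ-CAMTA1. Stat2 averaged 40.1 ± 0.759, 74.0 ± 1.42 and 31.1 ± 4.51 CPM (SD, n = 3) in control, TAZ4A and TAZ-CAMTA1, with log2 fold changes of 0.88 and -0.37 against control (adjusted p = 3.71e-04 and 0.0271, limma). Irf9 averaged 59.8 ± 1.80, 88.1 ± 2.57 and 41.4 ± 0.853 CPM, with 0.55 and -0.52 (adjusted p = 2.94e-04 and 4.59e-04, limma). Stat2 in TAZ-CAMTA1 was -0.24 against control without TAZ-CAMTA1 replicate 2 (adjusted p = 7.27e-04, limma). Between the expressing groups they differed by -1.25 and -1.08 (adjusted p = 4.67e-05 and 6.09e-06, limma). Receptor chains moved differently. Ifnar1 measured 178, 159.6 and 178 CPM in control, 128, 124 and 132 with TAZ4A and 272, 228 and 282 in TAZ-CAMTA1, so that the groups did not overlap, and it fell in TAZ4A at -0.43 and was higher in TAZ-CAMTA1 than in TAZ4A by 1.02 (adjusted p = 0.0112 and 7.58e-05, limma). Ifnar2 and Ifngr1 rose in TAZ-CAMTA1 by 0.84 and 0.66 (adjusted p = 0.00108 and 2.80e-04, limma), and Ifnar2 was higher there than in TAZ4A by 0.79 (adjusted p = 0.0012, limma). In all, 2 rose and 1 fell in TAZ4A, 5 rose and 2 fell in TAZ-CAMTA1, and 5 were higher and 2 lower between them. The matching shares of all tested genes were 13.2% and 11.7%, 16.8% and 15.3%, and 19.4% and 18.5%. The counts without TAZ-CAMTA1 replicate 2 were 3 and 3, 6 and 2, and 6 and 2. The shares of all tested genes were then 28.1% and 30.6%, 28.3% and 32.6%, and 30.5% and 32.5%.

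**Figure D5:**
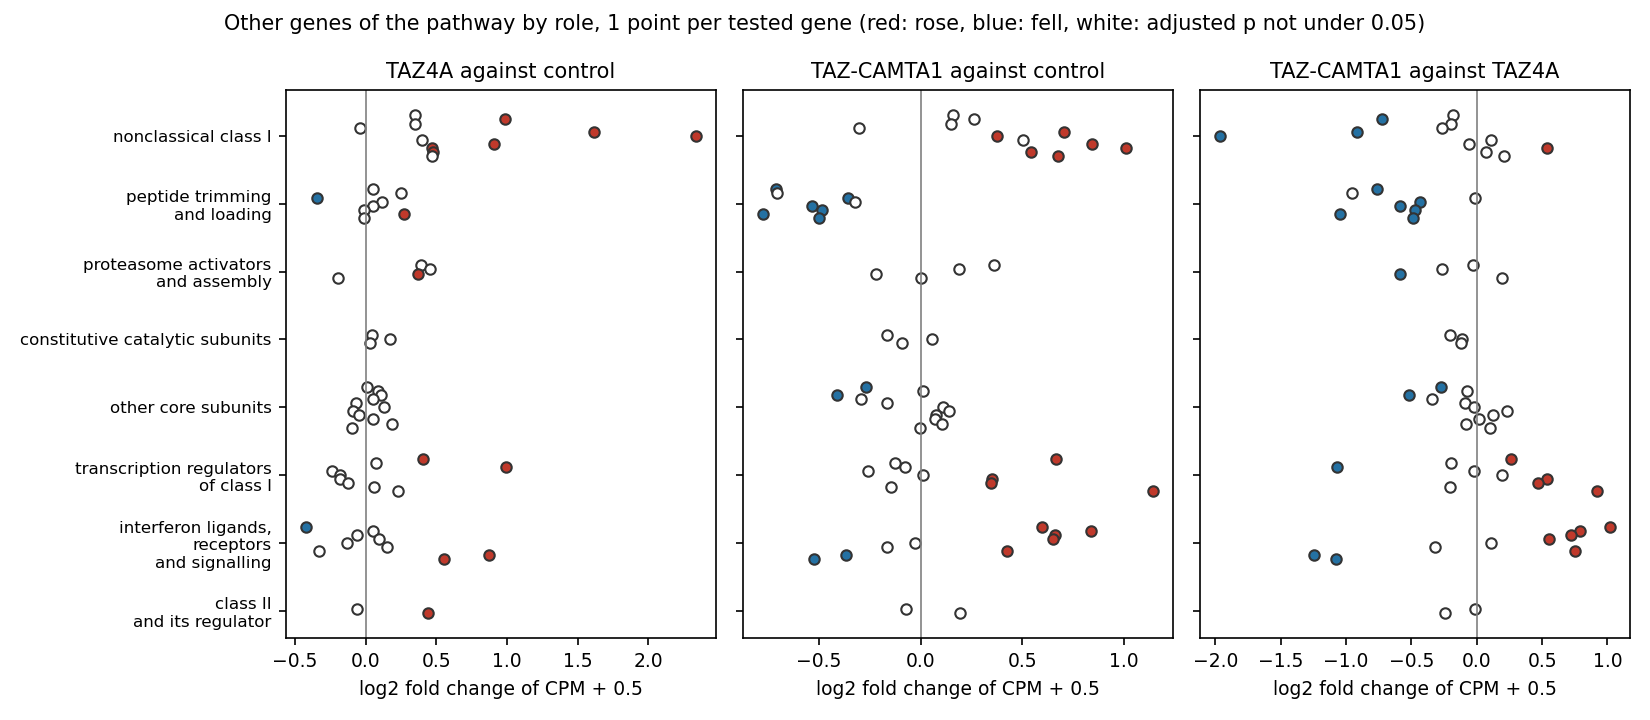
Log2 fold change on the CPM + 0.5 scale of the other tested pathway genes by role in the 3 comparisons, 1 point per gene (red, rose; blue, fell; white, limma adjusted p not under 0.05). The loading list is shifted to the left in both TAZ-CAMTA1 comparisons, where 6 of its 8 genes fell. Of all tested genes, 15.3% fell against control and 18.5% were lower than in TAZ4A.

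Class II genes, which present peptides to CD4 T cells and are normally kept to specialised cells, were mostly low or not detected. Ciita, the coactivator of class II and relative of Nlrc5, had 0 to 2 reads per library and was not tested. Of 7 listed class II genes 2 were tested, and H2-DMb1 rose in TAZ4A by 0.44 (adjusted p = 0.0364, limma), from 3.84 ± 0.554 to 5.35 ± 0.330 CPM (SD, n = 3). None passed in TAZ-CAMTA1 against either group with all libraries. H2-DMb1 was lower in TAZ-CAMTA1 than in TAZ4A without TAZ-CAMTA1 replicate 2, at -0.34 (adjusted p = 0.021, limma). Markers of cells that carry much class I were low. The 7 leukocyte markers in the table summed to 0.251 to 0.598 CPM in control, 1.72 to 2.54 CPM with TAZ4A and 6.28 to 9.74 CPM in TAZ-CAMTA1. Most of the TAZ-CAMTA1 sum was Lyz2, at 6.83 CPM on average, while the pan-leukocyte gene Ptprc averaged 0.0918, 0.0503 and 0.0403 CPM, about the value of 3 reads or less, and Csf1r was listed at 0 in control. Fibroblast and mural markers (8 in the table) summed to 5.44 to 6.73, 16.2 to 17.6 and 10.7 to 16.8 CPM, with Dcn at 0 in control, Rgs5 at 0 in TAZ4A and Lum and Rgs5 at 0 in TAZ-CAMTA1. Of 6 tested markers of this list, 5 rose and 0 fell in TAZ4A against control, and 3 rose and 0 fell in TAZ-CAMTA1. Of all tested genes, 13.2% rose in TAZ4A and 16.8% in TAZ-CAMTA1. Pancreatic markers (3 in the table) summed to 0.501 to 0.598, 8.23 to 10.3 and 0.864 to 2.28 CPM, nearly all of it Krt19, and Cdh1, the epithelial marker in the table, stayed at or under 0.0627 CPM. The part of these levels in the changes of the members was not tested.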

How the data were processed

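Poly-A RNA of 9 samples, 3 per group, was sequenced after preparation with a stranded kit, per the labels' protocols. Per the submitters' processing notes, bcl2fastq, FastQC, STAR, featureCounts and edgeR were used on mm10; versions, the strand setting and the handling of reads with several positions are not given in the sources used here, so overlapping and antisense genes cannot be told apart. The deposited gene values are a signal that the authors call CPM, reads divided by a scaled library size, with library sums of 976997 to 1028367 that differ between libraries; the design had assumed plain CPM, and the same log-scale test was kept. All of the values (100% within 0.01) were whole multiples of 1 read, from which read counts were recovered. The authors' TPM values are per transcript length. The deposited comparison table holds the authors' log2 fold changes, p-values and a likelihood ratio score, of which the fold changes and false discovery rates are quoted. Deposited STAR junction files hold counts of reads per intron (6410070 to 9889541 unique reads per library). Gene starts in the deposited table, counted from 0, are given counted from 1.

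The 12350 genes that reached 0.5 CPM in 3 or more libraries (all 10 members included) were fitted with limma 3.58.1 in R 4.3.3 (trend and robust options, pseudocount 0.5, all 9 libraries in 1 fit with 6 residual degrees of freedom, Benjamini-Hochberg adjustment, threshold 0.05). Fold changes are therefore on the log2(CPM + 0.5) scale, which understates the change of low genes. The method was tried on simulated data with the same spread in every library, which does not cover a library that stands apart, such as TAZ-CAMTA1 replicate 2. Sums of unique reads over introns annotated in GENCODE vM21 (GRCm38, the same assembly as mm10) and proteasome ratios (TPM + 0.5) were compared by exact two-sided permutation tests, where 3 against 3 cannot give a p below 0.1. Alternatives were TPM, the GENCODE vM4 table (symbols found for 23439 of 23744 genes), other pseudocounts, filters and scalings, the 6 samples compared alone, library weights, edgeR 4.0.16 and DESeq2 1.42.0 on whole reads, the replicate number as a block and leaving out each library. All members are named; of the other pathway genes, up to 2 called per role, direction and comparison with the largest change and at least 5 CPM in the higher group, with Irf1, Rfx5, Ciita, Ifnb1 and Psmb5 to Psmb7 always. A listed regulator, included in the counts of its list, is not reported here. Members and lists were chosen with earlier results of these data known. Transcript tables and the authors' GENCODE comparison were not used here.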

Additional observations from a re-analysis of the deposited data

How the results depend on the processing

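Members called against control in TAZ4A numbered 8 higher and 0 lower under every alternative other than leaving out 1 library, which gave 7 to 8 higher. In TAZ-CAMTA1 against control 5 to 8 were higher; 0 were lower except 1 with library weights and 1 without TAZ-CAMTA1 replicate 2 (range without 1 library, 0 to 1). Between the expressing groups 4 to 8 were lower, 8 with library weights (which gave that library a weight of 0.0287, the others 1.00 to 4.92) and 8 without TAZ-CAMTA1 replicate 2 (range without 1 library, 4 to 8), and none was higher. The shares of all genes higher and lower were not counted for most of these alternatives, library weights included. These counts therefore show only how calls of members moved. Alternatives of the members' 30 fold changes kept direction and side of the threshold in 610 cases, lost the call in 18, gained it in 21 and changed sign in 11. The sign changes were those of Tapbp in TAZ4A (0.0050 on TPM, 0.018 with equal sums), of Psmb10 in TAZ-CAMTA1 against control (-0.059 on TPM, -0.0066 on GENCODE, -0.023 with quantile normalization, -0.28 with library weights, -0.056 without control replicate 3; range without 1 library, -0.30 without TAZ-CAMTA1 replicate 2 to 0.19) and, against TAZ4A, of Psmb9 (-0.45 to 0.0050, the highest without TAZ-CAMTA1 replicate 1) and Psmb10 (-0.39 to 0.10, with 0.046 and 0.10 without TAZ-CAMTA1 replicates 1 and 3). Junction reads changed sign in 9 of 240 cases and proteasome ratios in 3 of 81. On junction reads these were Psmb10 in TAZ-CAMTA1 against control (-0.33 without TAZ-CAMTA1 replicate 2, to 0.41) and, against TAZ4A, Tap2 (-0.022 without it, to 0.34), Tapbp (-0.089 scaled to gene reads, -0.083 without it, -0.0066 without TAZ4A replicate 3, to 0.12), Psmb9 (-0.50 to 0.077, the highest without TAZ-CAMTA1 replicate 1) and Psmb10 (-0.064 scaled to gene reads, -0.42 without TAZ-CAMTA1 replicate 2, -0.012 without TAZ4A replicate 3, to 0.32). Against TAZ4A, Psmb9 over Psmb6 ranged from -0.20 to 0.0025 and Psmb10 over Psmb7 from -0.052 to 0.12 when 1 library was left out, the latter -0.022 without TAZ4A replicate 3. Counts of other pathway genes without TAZ-CAMTA1 replicate 2, an alternative chosen after seeing the data, moved by over 1.5 times in 17 of 48 cases. Against control in TAZ4A these were 10 nonclassical genes, 3 loading genes, 3 activators, 1 constitutive and 2 core subunits that rose, and 1 activator, 4 regulators and 3 interferon genes that fell. In TAZ-CAMTA1, 1 nonclassical gene, 2 activators, 3 constitutive and 10 core subunits fell against control, and 6 nonclassical genes, 3 activators, 3 constitutive subunits, 9 core subunits and 1 class II gene were lower than in TAZ4A. The 10 and the 6 nonclassical genes each include both H2-T9 and H2-T22, whose rows cover nearly the same span. The shares of all tested genes moved too without TAZ-CAMTA1 replicate 2, in TAZ4A from 13.2% to 28.1% rising and from 11.7% to 30.6% falling. In TAZ-CAMTA1 they moved from 15.3% to 32.6% falling against control and from 18.5% to 32.5% lower than in TAZ4A. In TAZ4A against control none of the compared libraries was left out, but the fit takes its spread from all 3 groups. The estimates of the members there stayed the same while their standard errors fell, for H2-K1 from 0.17 to 0.05. The cause of the moves was otherwise not tested. Same-numbered samples correlated in their deviations from the group means at 0.06, 0.14 and 0.18 (TAZ4A and control), -0.12, 0.52 and 0.39 (TAZ-CAMTA1 and control) and 0.01, 0.32 and 0.26 (TAZ-CAMTA1 and TAZ4A). These values were not set against those of differently numbered samples, so they do not settle whether the numbers pair samples. The main fit left the samples unpaired. With the replicate number as a block, 8 members rose in TAZ4A, 7 rose in TAZ-CAMTA1 and 5 were lower between them, and the share of all genes called was not counted. B2m then missed (adjusted p = 0.0544) and Nlrc5 passed (0.0389) in TAZ-CAMTA1 against control, and Psmb8 passed between the expressing groups (0.0296). With 3 libraries per group, small differences such as those of Tapbp and Psmb10 could not be told from the spread, and for Psmb9 the depth of 78 to 313 reads per library limits precision.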

Other observations

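Outside the classical heavy chains, 1 low row of the class I region stood out for the way its libraries separated; it was chosen after its values were seen. H2-Q7, a Qa-2 gene, had 1, 4 and 0 reads in control replicates 1 to 3, 77, 80 and 71 with TAZ4A and 9, 6 and 4 in TAZ-CAMTA1. The TAZ4A libraries were far above all others. The log2 fold change was 2.34 against control and -1.97 for TAZ-CAMTA1 against TAZ4A, on the log2(CPM + 0.5) scale. This row reached 0.5 CPM only in the TAZ4A libraries and so passed the filter through them alone. No p-value is given for it here, but it is included in the counts of the nonclassical list. The H2-Q9 row of the table covers nearly the same span (chr17:35439155-35443773 and chr17:35439167-35443770, mm10) and holds the same values, so the rows cannot be taken as separate genes. The rows of H2-T9 and H2-T22 also cover nearly the same span (chr17:36038409-36042692 and chr17:36038409-36042702) and had close values, with means of 38.7, 49.3 and 43.8 CPM for H2-T9 and 39.3, 50.1 and 44.2 CPM for H2-T22 in control, TAZ4A and TAZ-CAMTA1. With all libraries neither passed in any comparison. Without TAZ-CAMTA1 replicate 2, H2-T22 rose in TAZ4A by 0.35 against control (adjusted p = 2.97e-05, limma) and was lower in TAZ-CAMTA1 than in TAZ4A at -0.35 (adjusted p = 8.05e-05, limma), and H2-T9 passed in the same comparisons, at 0.35 and -0.34 (adjusted p = 3.42e-05 and 1.18e-04, limma).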
